A study of Mus musculus with 2 samples.

Results

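Mir22 is the gene of the microRNA miR-22, and these data give its level in the gastrocnemius of juvenile mice. It is 1 of 2202 microRNA genes in the deposited tables, and it was chosen by its symbol and by measured values, namely its high rank and the gap between the libraries, so those values are given here as a description without a test. The gastrocnemius is the large muscle of the calf. The tissue came from female B6CASTF1/J mice aged 14 days, the first-generation offspring of C57BL/6J and CAST/EiJ parents. No treatment or mutation is named, and the samples form 1 group of 2 biological replicates. The sample name of replicate 1 points to several females ("3x") and that of replicate 2 to a single female, yet both libraries carry 1 shared donor identifier. Whether animals were pooled is not stated in the labels, so the SD between the libraries need not be a spread between unrelated mice. Total RNA was size-selected below 30 nt and sequenced, which captures mature microRNAs.

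A microRNA is cut from a hairpin in a longer transcript, and 1 or both arms of that hairpin are loaded into an Argonaute protein. The loaded strand then pairs with messenger RNAs mainly through its seed, bases 2 to 8, and lowers their translation and stability. miR-22 is known as an abundant microRNA of heart and skeletal muscle that promotes hypertrophic growth of heart muscle cells and favours differentiation of muscle precursors. The deacetylase genes Sirt1 and Hdac4 and the transcription repressor gene Purb are among its known targets.

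The Mir22 hairpin lies on the plus strand of chromosome 11 from 75463716 to 75463810 in mm10 (identifier ENSMUSG00000065529.1). In GENCODE release M21 it falls wholly inside exon 2 of the long noncoding gene Mir22hg (chromosome 11, 75461539 to 75466676), 23 bases after the exon begins. Both annotated Mir22hg transcripts carry it. It is also inside an exon of 1 of the 4 annotated transcripts of Tlcd2, a coding gene that overlaps Mir22hg on the same strand. So the hairpin is exonic, and a microRNA read cannot show from which of these transcripts it was cut.

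The RefSeq sequences (GRCm38.p6, the same assembly as mm10) show what a read assigned to Mir22 can be. In the hairpin the capitals mark the 2 mature arms, and in the arms they mark the seed.
Mir22 hairpin: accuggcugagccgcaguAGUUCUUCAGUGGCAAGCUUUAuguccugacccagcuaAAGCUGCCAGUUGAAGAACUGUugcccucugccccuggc
mmu-miR-22-5p: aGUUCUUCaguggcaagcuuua
mmu-miR-22-3p: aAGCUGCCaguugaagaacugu

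Each arm is 22 nt long, with 16 bases between them. In the predicted minimum-energy fold of the 95-nt hairpin, 19 of the 22 bases of the 5p arm pair with the 3p arm. The deposited count is per gene and pools both arms. The share of each arm was therefore not measured, although miR-22-3p is generally known as the main product.

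Neither seed is shared within the RefSeq table of mature microRNAs. Of the 2202 genes, 1032 matched that table by symbol, so seeds of the rest may be missing from the comparison. None of the other mature microRNAs in the RefSeq table, which holds 1738 mouse mature sequences, has the seed of either arm. A seed held by a single mature sequence is common, since 68.0% of the entries have one. Counting only the first 6 bases of the seed, Mir6935 and Mir7092 each have 1 arm that matches the 5p arm, and no entry matches the 3p arm. These 2 genes were near or at 0 here: Mir6935 had 1 read in replicate 1 and 3 in replicate 2, and Mir7092 had 0 reads, which allows up to 1.12 CPM and 0.699 CPM (reads per 1000000 assigned to microRNA genes, taking 3 reads as the limit).

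Reads that align to several places enter no gene's count in these tables, so a repeated sequence would lower the measured level. The longest stretch that the Mir22 hairpin has in common with any of the 2201 other annotated hairpins, on either strand, is 13 nt, with Mir6998. The longest for the 3p arm is 11 nt and for the 5p arm 10 nt. Among 141767 GENCODE transcripts, an exact copy of either arm occurs in those of Mir22, Mir22hg and Tlcd2, which are the same locus. The rest of the genome was not searched here.

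Mir22 was among the most abundant microRNA genes in both libraries. Replicate 1 had 85819 Mir22 reads of 2672454 assigned to microRNA genes, or 3.21% (exact 95% binomial interval 3.19 to 3.23). Replicate 2 had 101723 of 4292012, or 2.37% (2.36 to 2.38). That is about 1 assigned read in 31.1 and 1 in 42.2. The level was 32112 CPM in replicate 1 and 23701 CPM in replicate 2, with a mean of 27906 ± 5948 CPM (SD, n = 2). The intervals cover the counting error of reads only. The labels name no molecular identifiers, so the error in sampling molecules may be larger. At this depth counting error is small beside the gap between the libraries.

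Of all reads in each library, those on Mir22 made up 1.07% and 0.838%. Reads that aligned to several places were 52.7% and 52.4% of the libraries. No read lay on the opposite strand of the hairpin in either library, and the count without regard to strand equalled the same-strand count. The GENCODE table lists no gene opposite the hairpin.

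By count, Mir22 ranked 8 in replicate 1 and 10 in replicate 2, and 10 by mean CPM. These ranks are among reads that align to 1 place: genes with identical copies, such as Mir1a-2, Mir133a-1 and Mir26a-1, lose their shared reads to the multiply aligned ones and may rank higher. A microRNA read spans a mature strand, so counts were compared between genes without a length correction. The genes above it held 53.2% of assigned reads in replicate 1 and 58.2% in replicate 2. Among the 367 genes with at least 1 CPM in both libraries, called expressed here, Mir22 stood 378 times above the median gene in replicate 1 and 307 times in replicate 2.

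The neighbours in rank show that the order around Mir22 is not settled by these libraries. Just above it by mean CPM were Mir23a, of a cluster known in endothelium and muscle atrophy control, at 28951 CPM in replicate 1 and 32771 CPM in replicate 2, and Mir411, of the imprinted Dlk1-Meg3 region, at 28924 and 38093 CPM. Mir22 was above both in replicate 1, with 1.11 reads for each Mir23a read, and below both in replicate 2, with 0.723. So Mir22, Mir23a and Mir411 overlap across the libraries and have no fixed order.

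The gaps to the genes farther away were in 1 direction in both libraries. Above, Mir23b held 4.11% ± 0.0948, Mirlet7i 4.76% ± 0.0673 and Mirlet7g 5.02% ± 0.314 of assigned reads, each higher than Mir22 in both libraries. Below, Mir26b, hosted by the phosphatase gene Ctdsp1, held 2.04% ± 0.138. Mir143, known from smooth muscle and fibroblasts, held 1.98% ± 0.0483, Mir379 1.60% ± 0.0986, Mirlet7b 1.60% ± 0.116 and Mir99a 1.41% ± 0.513. The lead of Mir22 over Mir26b was narrow in replicate 2, at 1.11 reads per Mir26b read, against 1.66 in replicate 1. By distance in log2 CPM over the 2 libraries, the genes most like Mir22 were Mir23a (0.49), Mir411 (0.70) and Mir26b (0.74).

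**Figure D1:**
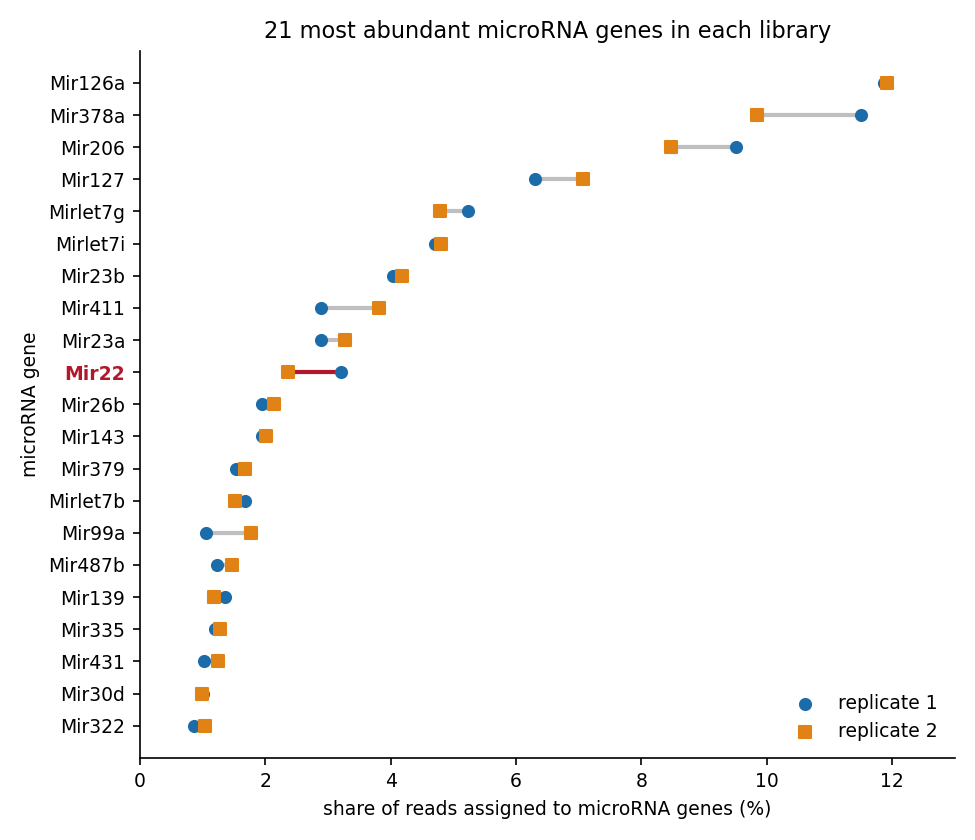
Share of reads assigned to microRNA genes (percent, x axis) for the 21 genes with the highest mean CPM (y axis), with a circle for replicate 1, a square for replicate 2 and a line joining them. Mir22 (red) lies at 3.21% in replicate 1 and 2.37% in replicate 2, and the spans of Mir411 and Mir23a overlap its span.

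The level of Mir22 was not equal in the libraries. It was 1.35-fold higher in replicate 1 (95% counting interval 1.34 to 1.37), a log2 ratio of replicate 2 over replicate 1 of -0.44. A single library on each side compares those libraries and not animals or conditions. An interval that leaves out 1 is common here: it held for 73.9% of the 176 genes whose mean level reached 100 CPM, and for 34.7% on the side of a lower level in replicate 2. The size of the gap was less common, since 25 of the other 175 genes (14.3%) were farther apart in either direction.

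Among genes of like level the gap was wide. The 20 genes nearest to Mir22 in mean log2 CPM ran from 9057 CPM (Mir541) to 89900 CPM (Mir206). Their median difference between the libraries was 1.12-fold in either direction, 7 were lower in replicate 2 and 13 higher. Only Mir99a was farther apart than Mir22, and in the opposite direction, with 10499 CPM in replicate 1 and 17758 CPM in replicate 2 (log2 ratio 0.76). The lowest log2 ratio of the 20 was -0.20, for Mir139, hosted by Pde2a. In reads per read of the same library, which needs no total, Mir22 was lower in replicate 2 against each of its 10 rank neighbours. The value against Mir99a was 3.06 in replicate 1 and 1.33 in replicate 2, and against Mirlet7b 1.91 and 1.56. All 10 neighbours are among the 20 genes, whose log2 ratios were all above that of Mir22. The reads per read therefore restate those ratios and are no separate check.

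In percentage points of assigned reads, the share of Mir22 dropped by 0.841 between replicate 1 and replicate 2, and 2 genes had a wider gap on that side. Mir378a, hosted by the mitochondrial coactivator gene Ppargc1b, held 11.5% in replicate 1 and 9.85% in replicate 2, and Mir206, largely restricted to skeletal muscle, 9.51% and 8.47%. On the other side Mir411 had the widest gap, with 2.89% and 3.81%.

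**Figure D2:**
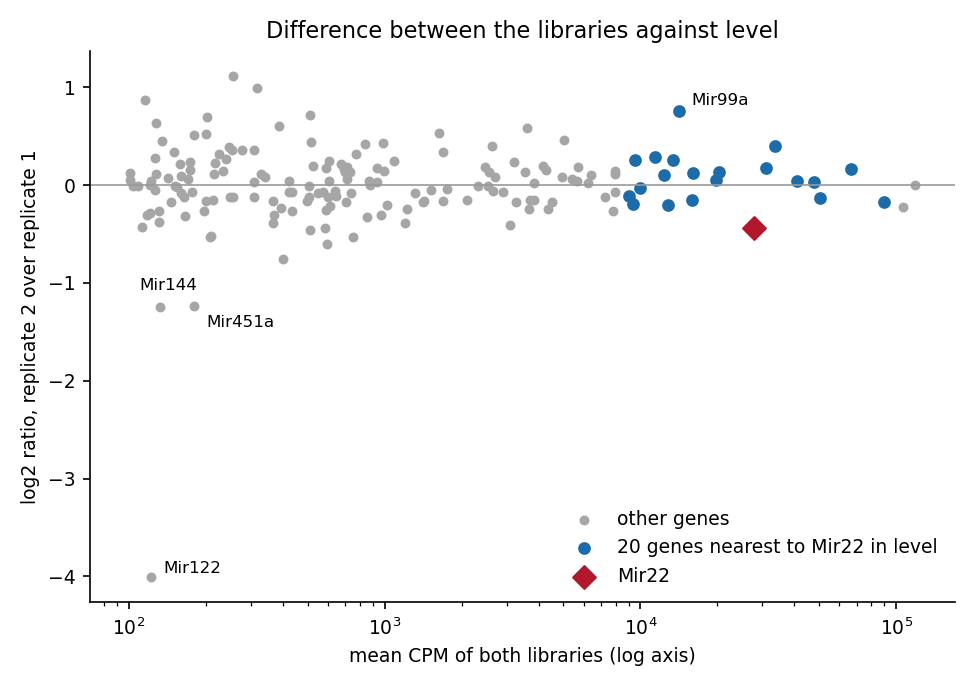
Log2 ratio of replicate 2 over replicate 1 (y axis) against mean CPM on a log axis (x axis) for the 176 genes whose mean level reached 100 CPM, each point 1 gene. Mir22 (red diamond, -0.44) lies below all 20 genes nearest to it in level (blue), and Mir99a (0.76) is the blue gene farthest from 0.

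Markers of tissue and cell types were read in the same libraries. The defining muscle microRNA Mir206 was abundant, and the 9 listed striated muscle genes, 8 of them expressed, held 9.63% of assigned reads in replicate 1 and 8.59% in replicate 2, nearly all of it from Mir206. The other 8 held 0.122% and 0.118%, of which 5 were higher in replicate 2 and 3 lower, and their copies again keep shared reads out of the counts. In the direction of Mir22, both erythroid genes were lower in replicate 2 (summed share 0.0437% and 0.0185%), as was the hepatocyte gene Mir122 (0.0229% and 0.00142%). Of the 6 leukocyte genes (0.273% and 0.222%), 5 were lower, among them Mir342 with 874 CPM in both libraries, and 1 was higher. Over all 176 genes whose mean level reached 100 CPM, 87 were lower and 89 higher. The endothelial list (11.9% in both) and the fibroblast and smooth muscle list (2.43% and 2.54%), in which Mir199a-1 had no read, were nearly level. Epithelial genes held 0.00782% and 0.00932% (209 and 400 reads), with 1 lower and 6 higher in replicate 2. Among the 6 were Mir141 with 0 and 2 reads and Mir200a with 0 and 5, too few to show a direction. Neuronal genes held 0.00172% and 0.00499% (46 and 214 reads), with 0 lower and 2 higher. Nearly all these reads were from Mir137 (46 and 210), and Mir9-3 had 0 and 4, so the direction rests on 1 gene. The neuronal genes Mir124a-1, Mir124a-2, Mir124a-3, Mir9-1 and Mir9-2 had no read. The Mir124a genes share a mature sequence, as do the Mir9 genes, and both mature arms of Mir199a-1 are also in Mir199a-2. Reads of such shared sequences would enter no count, so these zeros and that of Mir199a-1 do not show absence. The part of these cell types in the Mir22 gap was not tested. In whole tissue, fewer cells of a type and less RNA per cell cannot be told apart.

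Mir22 was set beside other microRNA genes known from growth, hypertrophy, atrophy or differentiation of striated muscle. Of 36 listed genes 32 were expressed, and 3 stood above Mir22 by mean CPM. The list held 31.4% of assigned reads in replicate 1 and 28.6% in replicate 2, of which Mir22 made up 10.2% and 8.30%. Several listed genes have identical copies elsewhere (Mir1a, Mir133a, Mir19b, Mir26a, Mir29b, Mir181a, Mir199a), and Mir486 has a stretch of 22 nt in common with Mir3107 on the other strand of its locus. Their shared reads enter no count, so these levels are lower bounds and the genes may stand higher.

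The genes above Mir22 were Mir378a (115060 CPM in replicate 1 and 98457 CPM in replicate 2), known in muscle metabolism, Mir206 (95105 and 84695 CPM), known in nerve-muscle repair, and Mir23a, which represses atrophy ligases. The next below was Mir431, known in muscle stem cells, at 10238 and 12510 CPM. Mir322, which promotes cell-cycle exit of differentiating myoblasts, had 8672 and 10347 CPM, and Mir195a, a regulator of the cell cycle, 8142 and 7785 CPM. Mir22 thus had more reads than Mir431, the next growth gene, in both libraries.

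Mir21a, known in fibrosis, stood at 4778 and 4246 CPM, and Mir27b, which targets myostatin and Pax3 transcripts, at 4701 and 3981 CPM. Mir486, abundant in muscle and red cells, had 643 and 538 CPM, both lower bounds. The myosin intron genes Mir499 (213 and 280 CPM) and Mir208b (81.6 and 149 CPM), which favour slow fibres, were higher in replicate 2, whereas Mir22 was lower there.

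Of the other listed genes, 17 reached a mean level of 100 CPM, and 8 of these were lower and 9 higher in replicate 2. Their median log2 ratio was 0.14, against 0.01 over all 176 genes of that level, of which 87 were lower and 89 higher. The 17 ran from -0.53 (Mir1a-2) to 0.87 (Mir208b), so the growth genes lay on both sides of 0.

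**Figure D3:**
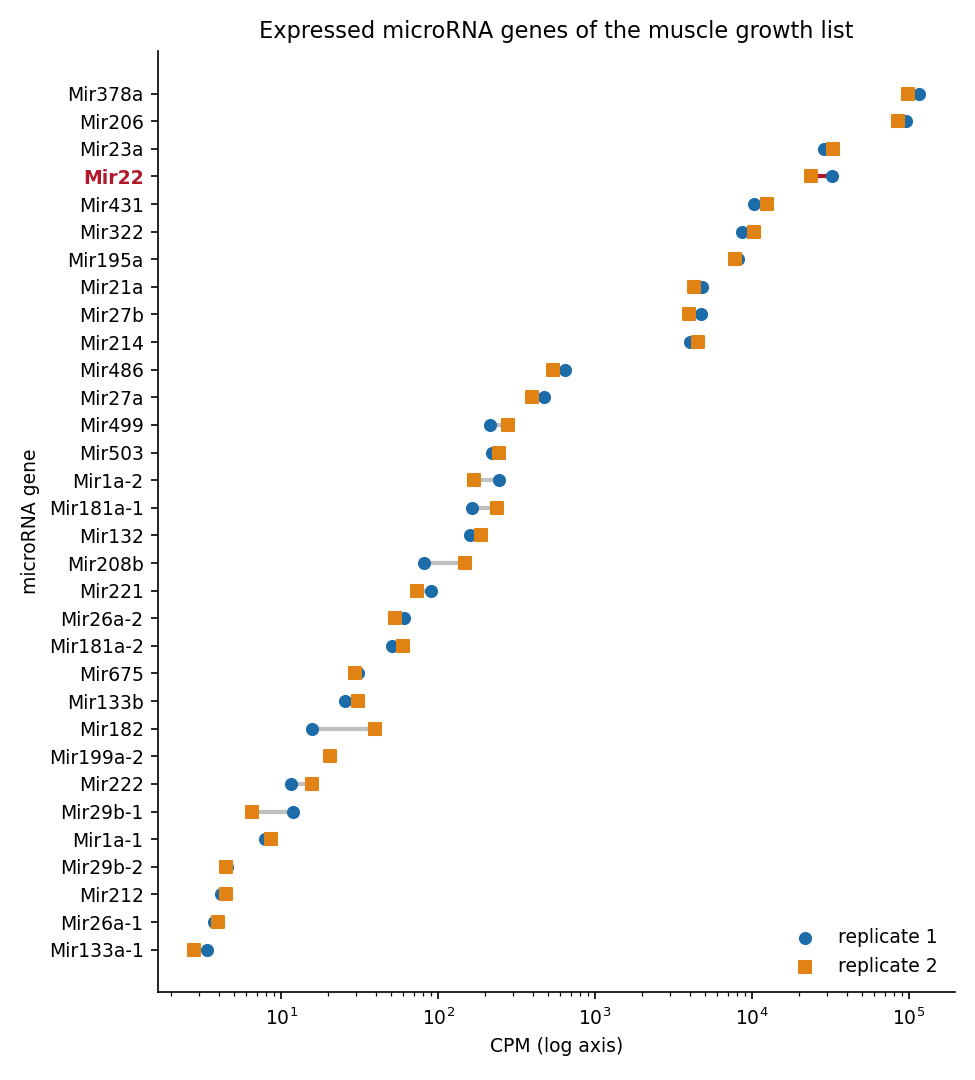
CPM on a log axis (x axis) of the 32 expressed genes of the muscle growth list (y axis), with a circle for replicate 1 and a square for replicate 2. Mir22 (red) lies at 32112 and 23701 CPM, below Mir378a, Mir206 and Mir23a by mean CPM and above Mir431.

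On chromosome 11 Mir22 made up about as many reads as all other microRNA genes together. Of the 137 annotated genes there, 29 were expressed. Mir22 held 54.0% of the chromosome's assigned reads in replicate 1 (exact 95% interval 53.7 to 54.2) and 47.2% in replicate 2 (46.9 to 47.4). The other 136 genes held 2.74% and 2.66% of all assigned reads, so their sum was nearly level where Mir22 held 3.21% and 2.37%. The next in level were Mir195a, Mir744 (6184 and 6267 CPM, in an intron of Map2k4) and Mir21a. The sum of the other genes does not describe each of them. Mir497, Mir146, Mir451a and Mir144 are also on chromosome 11. Their log2 ratios were as low as that of Mir22 or lower (-0.53, -0.44, -1.23 and -1.25). Others on the chromosome, such as Mir132 and Mir423, were higher in replicate 2.

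The nearest microRNA genes were quiet beside it. Gm47300, 145 kb before Mir22, and Mir3971, 87.6 kb after it, had no read in either library, which allows up to 1.12 and 0.699 CPM. Mir132 and Mir212, a pair known in neurons and in heart hypertrophy, lie 290 kb before Mir22 on the same strand. In replicate 1 Mir132 stood at 159 CPM, and in replicate 2 at 187 CPM. Mir212 had 4.12 and 4.43 CPM from 11 and 19 reads. Beyond them, Mir423 (1614 kb after Mir22) had 944 and 1041 CPM, and Mir144, an erythroid gene 2609 kb after it, 186 and 78.3 CPM. Mir132 and Mir423 were higher in replicate 2, by a ratio of 1.18 (1.04 to 1.32) and 1.10 (1.05 to 1.16), the opposite direction to Mir22. Mir144 was lower in replicate 2, as Mir22 was, with a ratio of 0.422 (0.366 to 0.485). The interval of Mir212 included 1 (ratio 1.08, 0.486 to 2.50).

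**Figure D4:**
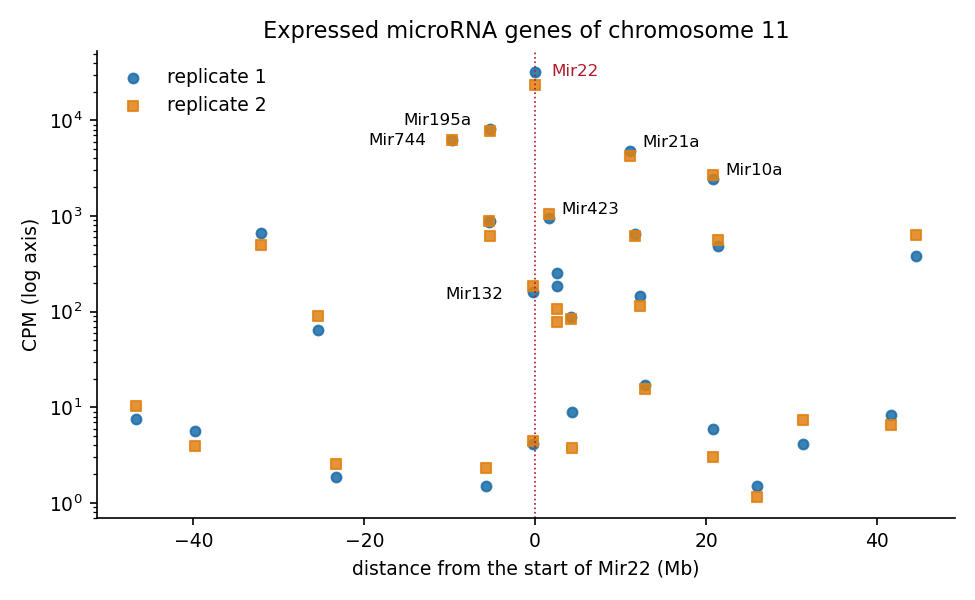
CPM on a log axis (y axis) of the 29 expressed microRNA genes of chromosome 11 against their distance from the start of Mir22 in Mb (x axis), with circles for replicate 1 and squares for replicate 2. Mir22 (dotted line) is the highest point in both libraries, at 32112 and 23701 CPM, and Mir132, 290 kb away, lies at 159 and 187 CPM.

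Most microRNA genes sit in introns or between genes, and Mir22 belongs to those carried in an exon of a long noncoding gene. By GENCODE M21, 42 expressed hairpins lay wholly in such an exon on the same strand, with a median of 148 CPM against 74.0 CPM for the other 325 expressed genes. Of the 69 genes whose mean level reached 1000 CPM, 7 were of this kind, a similar share to the 42 of all 367 expressed genes. Mir22 had the highest level of the 42, with 36.9% of their reads in replicate 1 and 31.2% in replicate 2.

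The next in this class were Mirlet7b in Lncppara (16788 and 15149 CPM), Mir30d in Gm20732 (10054 and 9847 CPM), Mirlet7d in 6720427I07Rik (9955 and 8723 CPM) and Mir191 in 4833445I07Rik (5592 and 5750 CPM). let-7 members are known to restrain growth genes. The host transcripts themselves were not measured in RNA shorter than 30 nt.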

How the data were processed

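Small RNA libraries of 2 gastrocnemius samples were analysed. The deposited tables hold unnormalized read counts for each microRNA gene, made on mm10 with annotation M21, per the deposited text files. The aligner and counting tool were not given in the sources used here. Each table has 3 count columns, read from their order as without strand, same strand and opposite strand, and same-strand counts were used. The 4 lines that name no gene held 66.6% and 64.6% of reads and stayed out of totals. The assigned totals, 2672454 and 4292012 reads, make 1 read worth 0.374 CPM in replicate 1 and 0.233 CPM in replicate 2.

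CPM is the count per 1000000 assigned reads. Shares have exact Clopper-Pearson 95% intervals, and ratios have intervals from the exact binomial of the pooled counts. The ratio intervals were tested on simulated Poisson counts with counting error alone, so that test says nothing about spread between libraries. Since the samples form 1 group, no groups were compared. Genes of like level are the 20 nearest in mean log2 CPM (pseudocount 1). By the rule for named genes, these are Mir22, the 5 neighbours by mean CPM on each side and the 3 nearest in log2 CPM over both libraries. The rule also takes the 3 nearest on each side on chromosome 11, genes with either seed and the 5 highest in exons of long noncoding genes. It adds members of the growth list and the highest and lowest ratio of like level. Members of the marker lists were named outside this rule. Mir6935 and Mir7092 (6-base seed matches), Mir6998, Mir744, and the genes with the most share points gained or lost were added after their values were seen. So were the genes farther below Mir22 in ratio or close to it. Mir22 and the gene lists were chosen with earlier results of these data known.

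Of the 2202 genes, 1032 matched the RefSeq sequence table by symbol, among them 334 of the 367 expressed. Alternatives used the unstranded column, other denominators, edgeR 4.0.16 TMM factors, DESeq2 1.42.0 size factors (R 4.3.3), other windows and each library alone. Python 3.11.15, scipy 1.17.1 and ViennaRNA 2.7.2 were used.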

Additional observations from a re-analysis of the deposited data

How the results depend on the processing

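The share of Mir22 followed the denominator: its mean of 2.79% became 3.76% with the unstranded column, 0.955% of all reads and 1.10% of assigned plus multiply aligned reads. It stayed within the SD between the libraries with TMM or DESeq2 factors and without Mir126a, and each library alone gave 2.37% to 3.21%. The rank of 10 became 8 with the unstranded column, in which Mir126a and Mir378a keep at most 6 reads in a library. Summing identical copies also gave 10, but says little, since reads shared by copies enter no count and genes not matched to the RefSeq table were not summed. Each library alone gave 8 to 10. The log2 ratio of -0.44 became -0.47 with the unstranded column, -0.36 over all reads, -0.47 with TMM factors and -0.46 with DESeq2 factors, lower in replicate 2 each time. Mir99a was the 1 gene of like level farther apart than Mir22 in all 5 alternatives for that count (windows of 10 and 30 genes, a minimum of 10000 CPM, TMM factors, the unstranded column). These alternatives share most genes and counts with the main setting, so their agreement was close to fixed and says little. With a single library on each side, no ratio could be formed without a library. Genes expressed numbered 367, 255 at 10 CPM in both libraries, and 660 with any read. Depth does not limit the Mir22 values, but below about 3 reads in a library a gene cannot be told from one without reads.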

Other observations

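Seen from the top of the ranking, Mir22 had the lowest log2 ratio of replicate 2 over replicate 1 among the 79 most abundant genes, down to a mean of 771 CPM. Mir30e (rank 48, log2 ratio -0.41) and Mir93 (rank 67, -0.39) came close to it. This ranking was noticed in the data, which also set its cut at 79 genes, and is a description of 2 libraries. Among genes whose mean level reached 100 CPM, the 10 that lay farther below were Mir497 (rank 80, log2 ratio -0.53), Mir181b-2 (-0.60), Mir146 (-0.44), Mirlet7c-2 (-0.45), Mir155 (-0.76), Mirlet7a-1 (-0.52), Mir1a-2 (-0.53), Mir451a (-1.23), Mir144 (-1.25) and Mir122 (-4.01). Mir146 and Mir155 are on the leukocyte list, Mir451a and Mir144 are the erythroid list, Mir122 is the hepatocyte gene and Mir1a-2 is on the striated muscle list. The whole leukocyte list had 5 genes lower in replicate 2, among them Mir342 with 874 CPM in both libraries, and 1 higher. The whole striated muscle list had 4 lower and 5 higher. Whether listed genes are more common here than among all genes reaching 100 CPM was not tested. Mir22 had 85819 reads in replicate 1, against 612 for Mir122 and 2376 for Mir497.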
